A study of Mus musculus with 7 samples.

Results

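The 32 genes described here encode the T cell receptor and its proximal signalling proteins, the co-receptors and costimulatory or adhesion receptors of T cells, factors of naive and memory T cells, and regulatory T cell proteins. They were taken by gene symbol, from a list chosen with earlier results of these data known, out of 32212 genes with a value in each library. All 32 were found, each under a single gene identifier. They comprised 12 receptor complex and signalling genes, 10 co-receptor and costimulatory genes, 7 naive, memory and lineage genes and 3 regulatory T cell genes.

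The genes were measured by mRNA sequencing of tumours grown under the skin of mice from Lewis lung carcinoma (LLC) cells, a lung cancer line that originated in a mouse and can be transplanted. The tumours of 3 ZQD libraries came from mice given Ze-qi decoction, a herbal preparation, at 42.67 g/kg, and those of 4 control libraries from model mice whose treatment is labelled none. The comparison addresses how high-dose ZQD alters gene expression in the tumour. All mice were C57BL/6J, labelled wild type, received LLC cells at 6 weeks of age and entered their groups 3 days later. The labels give the tumour collection as day 22 in one place and day 21 in another, name no vehicle for the controls, and leave unsaid whether the libraries represent separate mice. The p-values therefore reflect the spread between these samples, some of which may be technical. The cell type is labelled as tumour cell, but RNA came from whole tumour tissue, and the leukocyte gene Ptprc (CD45) lay at 10.8 to 13.6 FPKM in ZQD and 9.90 to 13.7 FPKM in control libraries. FPKM, the deposited unit, is the count of reads divided by the length of the gene and by the size of the library.

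The T cell receptor is a heterodimer, mostly of an alpha and a beta chain, which recognises a peptide held by an MHC molecule and has no signalling domain of its own. It signals through the CD3 chains and the zeta chain encoded by Cd247, which the kinase Lck, carried by CD4 or CD8, phosphorylates, after which the kinase Zap70 binds them and phosphorylates the adaptor Lat. Within tumours, CD8 T cells can kill tumour cells that present antigen, CD4 T cells help other immune cells, and Foxp3-expressing regulatory T cells restrain both.

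The promoters of the 4 genes of the signalling chains are shown because these chains assemble into a single complex and their transcripts are followed library by library or by group below. Each window runs from 250 bases before to 50 bases after the start of the gene in RefSeq on build GRCm38.p6, 5′ to 3′ on the strand of the gene, and capitals mark GGAA or its reverse complement TTCC, the core of sites for ETS transcription factors. The windows are chr1:165788431-165788730 (plus strand) for Cd247, chr9:44981536-44981835 (plus strand) for Cd3d, chr9:44980382-44980681 (minus strand) for Cd3g and chr9:45009562-45009861 (minus strand) for Cd3e.
Cd247: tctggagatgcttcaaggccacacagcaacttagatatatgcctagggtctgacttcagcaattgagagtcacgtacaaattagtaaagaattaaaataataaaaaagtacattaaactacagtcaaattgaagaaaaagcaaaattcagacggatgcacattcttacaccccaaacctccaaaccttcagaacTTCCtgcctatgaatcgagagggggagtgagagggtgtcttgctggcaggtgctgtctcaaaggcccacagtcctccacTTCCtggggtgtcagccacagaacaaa
Cd3d: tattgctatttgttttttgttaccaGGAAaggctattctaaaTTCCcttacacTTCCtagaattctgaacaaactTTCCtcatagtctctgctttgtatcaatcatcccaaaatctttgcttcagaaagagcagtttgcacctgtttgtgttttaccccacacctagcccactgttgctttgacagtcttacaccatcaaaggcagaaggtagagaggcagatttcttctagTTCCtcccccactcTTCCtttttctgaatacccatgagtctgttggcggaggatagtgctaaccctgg
Cd3g: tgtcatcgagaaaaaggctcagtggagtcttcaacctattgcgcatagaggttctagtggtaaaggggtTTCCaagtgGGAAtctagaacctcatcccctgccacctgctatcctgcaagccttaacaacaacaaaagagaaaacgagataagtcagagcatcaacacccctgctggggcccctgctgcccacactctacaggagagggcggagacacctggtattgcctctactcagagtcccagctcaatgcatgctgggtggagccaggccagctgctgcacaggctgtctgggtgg
Cd3e: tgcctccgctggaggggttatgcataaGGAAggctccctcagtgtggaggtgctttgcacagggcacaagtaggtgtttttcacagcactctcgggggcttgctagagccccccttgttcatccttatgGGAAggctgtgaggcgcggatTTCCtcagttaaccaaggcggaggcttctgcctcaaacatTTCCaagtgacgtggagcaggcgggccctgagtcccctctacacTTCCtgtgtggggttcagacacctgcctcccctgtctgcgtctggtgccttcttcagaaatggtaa

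The core appeared 2 times in the Cd247 window, 6 times in that of Cd3d, 2 times in that of Cd3g and 5 times in that of Cd3e. It was present in 96.0% of all 32851 promoter windows of this length, so its presence sets none of these genes apart. Over the 18 members with a promoter in the RefSeq table, 26 of 27 windows held it. The Runx motif TGTGGT, searched on both strands, was in 4 of 27 member windows and in 16.8% of all windows, and in none of the 4 windows printed. The E box CANNTG was in 25 of 27 member windows and 72.3% of all windows, and GATA in 15 of 27 and 57.9%. Cd3d and Cd3g start 1355 bases apart and are read in opposite directions. A match is a match of letters and is not a site measured in these tumours.

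Most T cell genes lay somewhat higher in ZQD tumours than in controls, and none of them passed the test across all genes. Of the 27 members above the expression filter (0.5 FPKM or more in 3 or more libraries), 22 had a log2 fold change above 0 and 5 below 0, with a median of 0.22. Among all 14838 genes tested, 41.8% had a log2 fold change above 0, and the median was -0.043. All log2 fold changes are ZQD minus control, taken of FPKM + 0.5, and the added 0.5 shrinks those of weakly expressed genes. No member had a Benjamini-Hochberg adjusted p under 0.05 in limma (background 0.0%), the smallest being 0.194 for Trbc1 and the smallest over all genes 0.078. At an unadjusted p under 0.05, 5 of the 27 members were higher in ZQD (18.5%, against a background of 5.21% of all genes), namely Trbc1, Icos, Cd247, Tcf7 and Thy1, and 0 were lower (background 10.3%). In 6 of the 27 (22.2%) every ZQD library lay above every control, against 5.35% of all genes tested. None of them lay below every control in every ZQD library, against 9.84% of all genes.

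Tests on whole reads rebuilt from the FPKM differed in their calls. The edgeR quasi-likelihood test called 0 members and 0 genes (background 0.0%), with 5 members at an unadjusted p under 0.05 (background 15.0%). DESeq2 called 504 of 13099 genes (3.85%), 288 of them higher in ZQD (2.2%), and 2 of the 27 members. These were Icos, with a DESeq2 log2 fold change of 0.91 (adjusted p = 0.0499), and Cd247, with 0.72 (adjusted p = 0.0332). Without control 4, DESeq2 called 295 genes and 0 members, with adjusted p of 0.167 for Icos and 0.127 for Cd247.

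**Figure D1:**
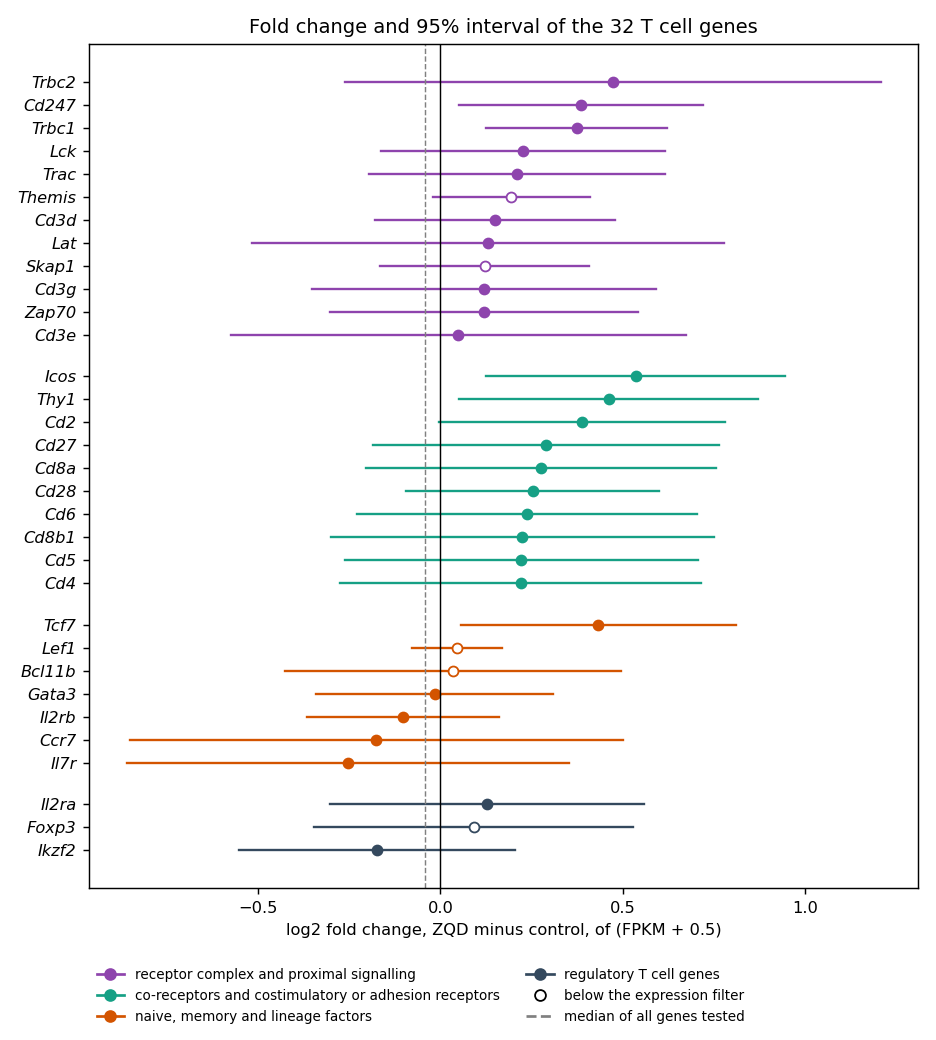
Log2 fold change (ZQD minus control, of FPKM + 0.5) of each of the 32 T cell genes, with its 95% interval from limma (3 ZQD and 4 control libraries), grouped by role. All 10 tested receptor genes and all 10 co-receptor genes lie right of 0, while the naive, memory and lineage genes lie on both sides; open points were below the expression filter, and the dashed line is the median of all genes tested (-0.043).

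A single library set much of this difference. The summed FPKM of the 32 genes was 105.9, 101.6 and 106.0 in ZQD 1 to 3, against 99.5, 99.0, 88.0 and 66.3 in controls 1 to 4. Control 4 thus stood apart from the other controls, and it was the lowest of all 7 libraries for 24 of the 32 genes. The highest value was in ZQD 3 for 11 of the genes and in ZQD 1 for 9. Without control 4 the median log2 fold change of the 27 tested members was 0.087, with 19 of 27 above 0, and without ZQD 3 it was 0.14, with 20 of 27 above 0. Without control 4, the groups did not overlap for 7 of 27 members (25.9%, against 6.63% of all genes tested), a count that can only stay or rise when a control is left out. The gene added was Cd28. Genes that every leukocyte expresses did not follow control 4, since their summed FPKM was 306, 292 and 288 in ZQD 1 to 3, against 276, 231, 305 and 281 in controls 1 to 4. In bulk tumour RNA, fewer T cells and less of these transcripts per T cell cannot be told apart.

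**Figure D2:**
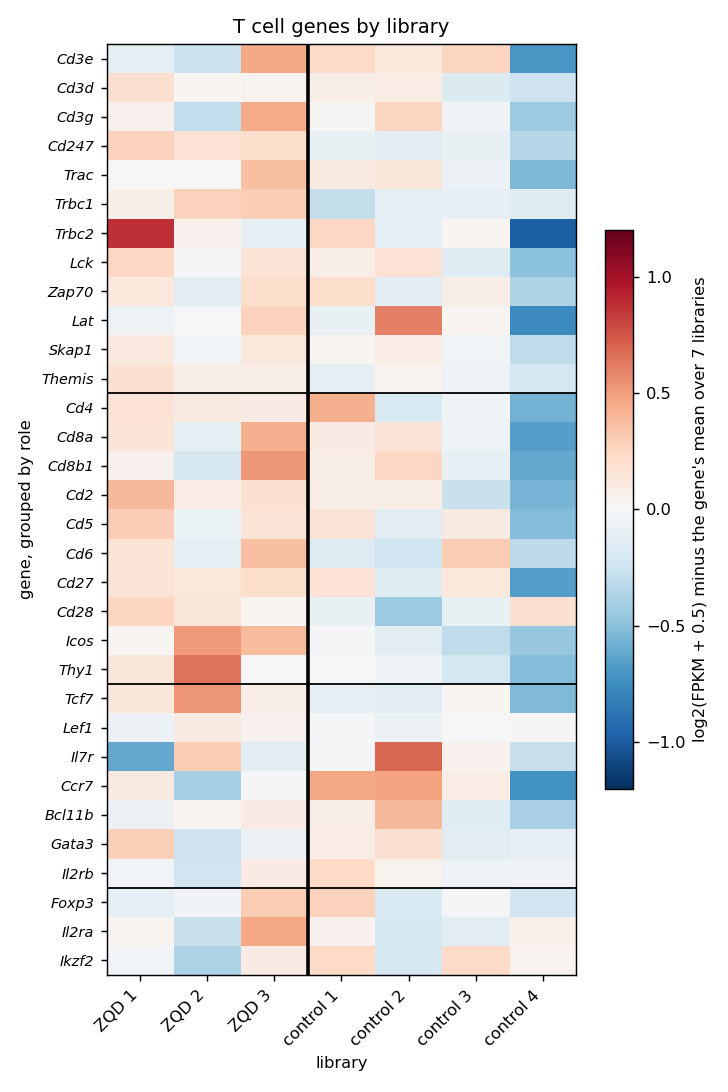
Deviation of log2(FPKM + 0.5) of each T cell gene from its mean over the 7 libraries, with the ZQD libraries left of the controls and genes grouped by role. Control 4 is the lowest library for 24 of the 32 genes, with a median deviation over the 27 tested genes of -0.49, and ZQD 3 the highest for 11.

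Among the receptor complex and proximal signalling genes, all 10 tested members had a log2 fold change above 0, with a median of 0.18. Without control 4, 7 of the 10 lay above 0 and the median was 0.074. Without ZQD 3 it was 8 of 10, and on the TPM scale 9 of 10. The groups did not overlap for Cd247 and Trbc1 among the tested genes, and for Themis below the filter.

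Cd247, which encodes the zeta chain, lay at 0.875, 0.781 and 0.815 FPKM in ZQD 1 to 3, against 0.568, 0.531, 0.568 and 0.395 FPKM in controls 1 to 4. The lowest ZQD library was 37.6% above the highest control, the widest gap of the 7 non-overlapping members. The mean was 0.824 ± 0.0478 FPKM in ZQD and 0.515 ± 0.0819 FPKM in control (SD, n = 3 and 4), from 83 to 172 reads per library, which gives a log2 fold change of 0.39 with an SE of 0.15 (limma adjusted p = 0.275), and of 0.33 without control 4. Exons of other genes overlap 60.3% of the exonic length of Cd247 in GENCODE M21, namely Gm16565 on the same strand and Pou2f1 on the opposite one. Strand cannot tell reads of Gm16565 apart from those of Cd247. It could for Pou2f1, but no source used here says whether the counting kept strand. Pou2f1, a broadly expressed transcription factor gene, was at 2.23 ± 0.292 FPKM in ZQD and 2.29 ± 0.243 FPKM in control, with a log2 fold change of -0.032. The part of NK cells, whose markers are given further below, in the Cd247 value was not tested.

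The 3 CD3 chains, which pair with the zeta chain in the same complex, overlapped between groups. Cd3e, for the epsilon chain, was at 1.02, 0.887 and 1.77 FPKM in ZQD libraries, against 1.44, 1.31, 1.48 and 0.523 FPKM in controls. ZQD 3 was the highest library and control 4 the lowest, and ZQD 1 and ZQD 2 lay below 3 of the 4 controls. The log2 fold change of Cd3e was 0.049, with a 95% interval of -0.58 to 0.67, -0.18 without control 4 and -0.17 without ZQD 3. Cd3g, for the gamma chain, averaged 3.93 ± 1.14 FPKM in ZQD and 3.54 ± 0.768 FPKM in control, with a log2 fold change of 0.12, -0.0064 without control 4 and -0.069 without ZQD 3. Cd3d, for the delta chain, averaged 1.16 ± 0.11 FPKM in ZQD and 1.00 ± 0.175 FPKM in control, with a log2 fold change of 0.15, and 0.087 without control 4. Leaving out either control 4 or ZQD 3 thus turned the sign of Cd3e and of Cd3g.

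Trbc1 and Trbc2 encode the constant regions of the receptor beta chain and are near-identical copies, so their split of reads is uncertain. Trbc1 lay at 2.61, 3.07 and 3.11 FPKM in ZQD libraries, against 1.93, 2.23, 2.25 and 2.17 FPKM in controls. The groups did not overlap, from 54 to 89 reads per library, and the log2 fold change was 0.37 (SE 0.11, limma adjusted p = 0.194) and 0.38 without control 4. Trbc2 lay at 12.7, 6.99 and 6.15 FPKM in ZQD libraries, against 8.05, 6.21, 6.85 and 3.16 FPKM in controls. Here ZQD 1 stood above all other libraries and ZQD 3 below 3 of the controls, and the log2 fold change of 0.47 (limma adjusted p = 0.504) was 0.17 without ZQD 1. The ratio of Trbc2 to Trbc1 was 4.87, 2.27 and 1.98 in ZQD libraries, against 4.18, 2.78, 3.05 and 1.45 in controls. Trac, for the constant region of the alpha chain, averaged 8.98 ± 1.41 FPKM in ZQD and 7.78 ± 1.65 FPKM in control, with a log2 fold change of 0.21, and 0.061 without control 4.

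The proximal kinases and adaptors differed little next to their spread. Lck, the kinase that phosphorylates the CD3 and zeta chains, lay at 2.69, 2.15 and 2.50 FPKM in ZQD libraries, against 2.33, 2.52, 1.93 and 1.41 FPKM in controls. The groups overlapped, and the log2 fold change of 0.23 was 0.097 without control 4. Zap70 averaged 0.830 ± 0.162 FPKM in ZQD and 0.732 ± 0.213 FPKM in control (log2 fold change 0.12, and 0.013 without control 4). Lat, the adaptor that gathers the signalling proteins, averaged 1.76 ± 0.29 FPKM in ZQD and 1.67 ± 0.821 FPKM in control. Its 95% interval, from -0.52 to 0.78 around a log2 fold change of 0.13, was among the widest of the receptor genes, and the value was -0.11 without control 4.

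A pair of the receptor genes did not reach the expression filter. Themis, a protein of early receptor signalling best known from thymocytes, lay at 0.332, 0.272 and 0.273 FPKM in ZQD libraries, against 0.180, 0.255, 0.203 and 0.135 FPKM in controls. The groups did not overlap, from 62 to 143 reads, and the lowest ZQD library was 6.56% above the highest control. Skap1, an adaptor that links the receptor to integrins, averaged 0.307 ± 0.0495 FPKM in ZQD and 0.244 ± 0.0857 FPKM in control, with overlapping groups.

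**Figure D3:**
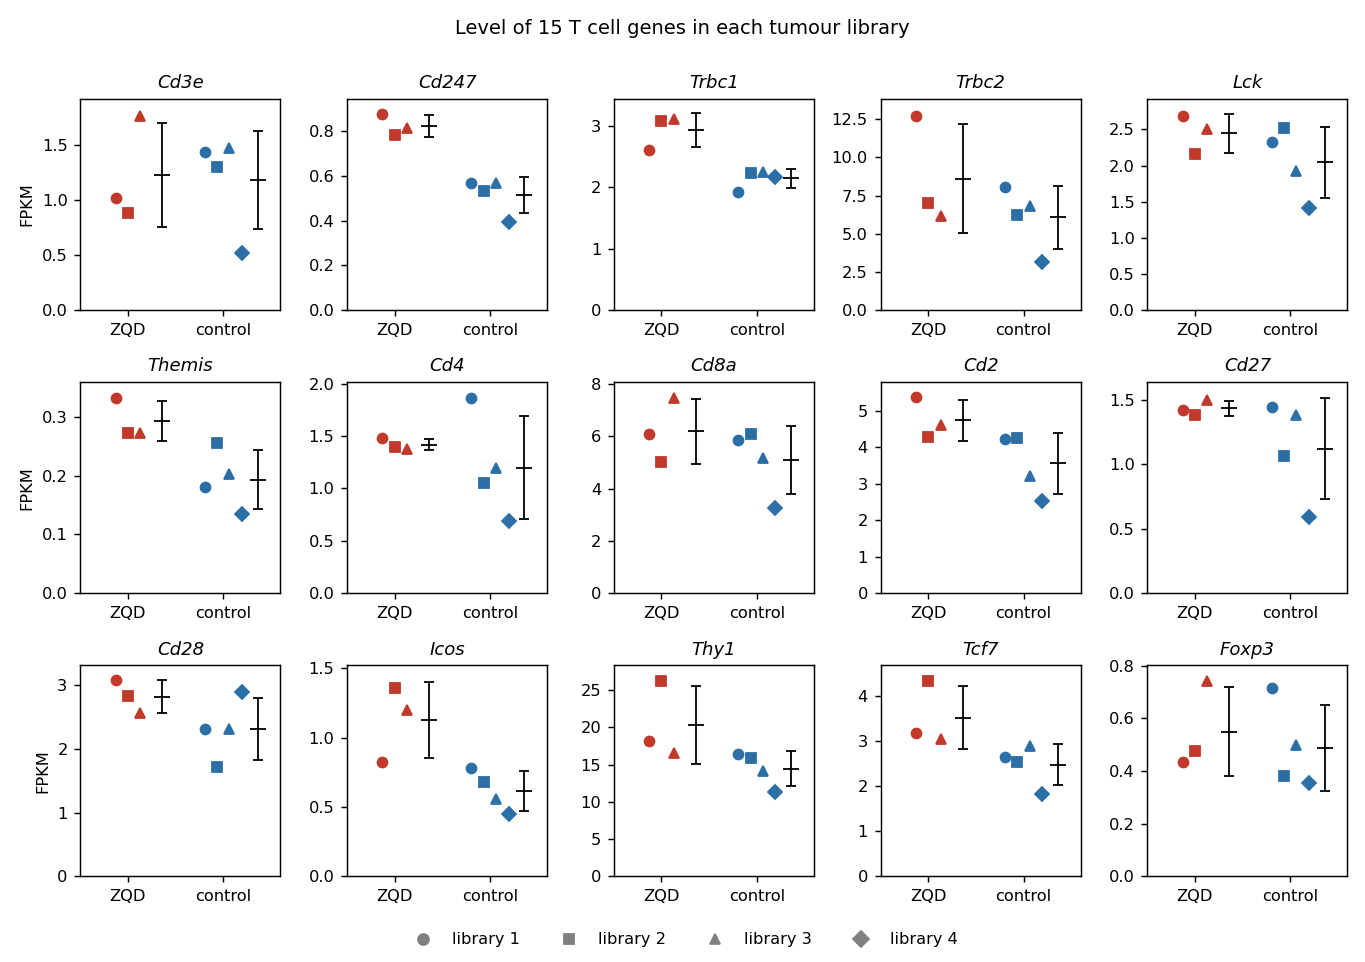
FPKM in each library (3 ZQD, left, and 4 control, right; symbols give the library number) of the T cell genes whose values are given library by library, with the mean and SD beside each group. The groups are apart for Cd247, Trbc1, Themis, Cd2, Icos, Thy1 and Tcf7, by only 0.083% of the level for Thy1, while those of Cd3e, Cd4, Cd8a and Foxp3 overlap.

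The 10 co-receptors and costimulatory or adhesion receptors all passed the filter, and all 10 had a log2 fold change above 0, from 0.22 for Cd4 to 0.54 for Icos, with a median of 0.26. All 10 stayed above 0 with any single library left out, and the median was 0.14 without control 4. In 3 of the 10, Icos, Thy1 and Cd2, the groups did not overlap.

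Icos encodes an inducible costimulatory receptor that appears on activated T cells and is high on regulatory and follicular helper T cells. It lay at 0.822, 1.36 and 1.20 FPKM in ZQD libraries, against 0.783, 0.683, 0.555 and 0.451 FPKM in controls. The lowest ZQD library, ZQD 1, was 5.08% above the highest control, and ZQD 2 and ZQD 3 were well above all controls. The log2 fold change was 0.54 (SE 0.18, limma adjusted p = 0.238), from 61 to 180 reads per library, and 0.46 without control 4.

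Cd28, the costimulatory receptor of naive T cells, lay at 3.07, 2.82 and 2.55 FPKM in ZQD libraries, against 2.31, 1.72, 2.31 and 2.89 FPKM in controls. Unlike most of the members, its highest control was control 4, and all 3 ZQD libraries lay above the other 3 controls. The log2 fold change was 0.25 (limma adjusted p = 0.450), and 0.35 without control 4. Cd27, a costimulatory receptor of the tumour necrosis factor receptor family, lay at 1.42, 1.38 and 1.50 FPKM in ZQD libraries, against 1.45, 1.06, 1.38 and 0.589 FPKM in controls. The groups overlapped, and the log2 fold change of 0.29 was 0.11 without control 4.

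Thy1, the surface protein used as a T cell marker in mice and also made by fibroblasts, lay at 18.2, 26.2 and 16.5 FPKM in ZQD libraries, against 16.5, 15.9, 14.2 and 11.3 FPKM in controls. The lowest ZQD library was 0.083% above the highest control, and ZQD 2 was the highest library. The log2 fold change was 0.46 (SE 0.18, limma adjusted p = 0.284), and 0.27 without ZQD 2. The summed FPKM of 9 fibroblast markers, Thy1 among them, was also highest in ZQD 2, at 240.2, with 108 in ZQD 1, 48.5 in ZQD 3 and 37.6 to 145.3 in controls. Their part in the Thy1 value was not tested.

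Cd2, an adhesion receptor of T and NK cells, lay at 5.36, 4.26 and 4.59 FPKM in ZQD libraries, against 4.22, 4.24, 3.21 and 2.54 FPKM in controls. The lowest ZQD library was 0.50% above the highest control, and the log2 fold change was 0.39 (SE 0.17, limma adjusted p = 0.326), 0.26 without control 4. Cd5 and Cd6, related scavenger receptors that dampen receptor signalling, both overlapped. Cd5 averaged 0.604 ± 0.144 FPKM in ZQD and 0.457 ± 0.191 FPKM in control, and Cd6 averaged 0.774 ± 0.205 FPKM in ZQD and 0.586 ± 0.227 FPKM in control, with log2 fold changes of 0.22 for Cd5 and 0.24 for Cd6. Without control 4 that of Cd5 was 0.080, and without ZQD 3 that of Cd6 was 0.13.

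The co-receptors that divide helper from cytotoxic T cells overlapped between groups. Cd4 lay at 1.48, 1.40 and 1.38 FPKM in ZQD libraries, against 1.86, 1.05, 1.19 and 0.686 FPKM in controls. The ZQD libraries were close together and lay within the range of the controls, and the log2 fold change of 0.22 (95% interval -0.27 to 0.72) was 0.063 without control 4. Cd8a lay at 6.09, 5.01 and 7.47 FPKM in ZQD libraries, against 5.86, 6.10, 5.17 and 3.26 FPKM in controls. Its log2 fold change of 0.28 (95% interval -0.21 to 0.76) was 0.095 without control 4. Cd8b1, the partner chain of Cd8a, averaged 4.82 ± 1.37 FPKM in ZQD and 4.07 ± 1.08 FPKM in control, with a log2 fold change of 0.22, and 0.027 without ZQD 3. It was 0.73 to 0.85 of Cd8a in ZQD libraries and 0.76 to 0.84 in controls.

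The naive, memory and lineage genes did not share the direction of the receptor genes. Of the 5 tested, Tcf7 had a log2 fold change above 0 and Il7r, Ccr7, Il2rb and Gata3 below 0, the last turning positive under other scalings, with a median of -0.10. Tcf7, the transcription factor TCF1 of naive, memory and stem-like T cells, lay at 3.18, 4.33 and 3.06 FPKM in ZQD libraries, against 2.64, 2.55, 2.90 and 1.83 FPKM in controls. The groups did not overlap, the lowest ZQD library being 5.36% above the highest control, and ZQD 2 was the highest library. The log2 fold change was 0.43 (SE 0.17, limma adjusted p = 0.278), 0.29 without ZQD 2 and 0.32 without control 4. Lef1, the close relative of Tcf7, was below the filter at 0.0770 ± 0.0366 FPKM in ZQD and 0.0580 ± 0.0143 FPKM in control, from 12 to 37 reads per library.

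Il7r, the interleukin-7 receptor chain that naive and memory T cells and innate lymphoid cells carry, averaged 3.52 ± 1.26 FPKM in ZQD and 4.28 ± 1.47 FPKM in control (log2 fold change -0.25, 95% interval -0.86 to 0.35), and its log2 fold change was -0.017 without ZQD 1 and -0.061 without control 2. Ccr7, which guides naive T cells and mature dendritic cells to lymph nodes, averaged 1.16 ± 0.291 FPKM in ZQD and 1.46 ± 0.653 FPKM in control, with a log2 fold change of -0.18, -0.44 without control 4 and -0.027 without ZQD 2. The groups overlapped for both genes. Gata3, a T helper and innate lymphoid factor that epithelial cells also use, averaged 7.39 ± 1.53 FPKM in ZQD and 7.41 ± 0.84 FPKM in control, with a log2 fold change of -0.016 that turned positive with median-of-ratios scaling (0.014) and TMM scaling (0.025). Il2rb, the beta chain of the interleukin-2 and interleukin-15 receptors, averaged 7.54 ± 0.95 FPKM in ZQD and 8.13 ± 0.847 FPKM in control (log2 fold change -0.10, and -0.010 without ZQD 2). Bcl11b, a factor of T cell commitment, was below the filter at 0.410 ± 0.0519 FPKM in ZQD and 0.405 ± 0.21 FPKM in control.

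The regulatory T cell genes gave no shared direction. Foxp3, the factor that defines the lineage, was below the filter at 0.433, 0.475 and 0.742 FPKM in ZQD libraries, against 0.713, 0.382, 0.497 and 0.355 FPKM in controls. The groups overlapped, from 64 to 163 reads per library, and exons of other genes overlap 31.5% of the exonic length of Foxp3 in GENCODE M21. Il2ra, the interleukin-2 receptor chain CD25, averaged 1.19 ± 0.437 FPKM in ZQD and 1.02 ± 0.138 FPKM in control, with a log2 fold change of 0.13, and -0.066 without ZQD 3. Ikzf2, the factor Helios, averaged 1.63 ± 0.347 FPKM in ZQD and 1.90 ± 0.338 FPKM in control (log2 fold change -0.17, 95% interval -0.55 to 0.20), with -0.039 without ZQD 2.

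Ratios within a library do not depend on the library total, and 8 were compared by two-sided exact permutation tests over all 35 assignments of the 7 libraries to groups of 3 and 4, whose smallest possible p is 0.0286. The ratio of Cd8a to the mean of Cd3d, Cd3e and Cd3g was 3.00, 3.11 and 2.80 in ZQD libraries, against 2.81, 2.65, 2.64 and 2.51 in controls. ZQD 3 lay just below control 1, and the log2 difference of 0.16 had an exact p of 0.0857 (0.686 after Benjamini-Hochberg adjustment over the 8 ratios). Control 4, the lowest library for T cell genes, was also the lowest here, though by little. The other 7 ratios overlapped widely, with exact p of 0.343 to 0.886 and an adjusted p of 0.886. Cd4 to the CD3 mean was 0.704 ± 0.177 in ZQD and 0.622 ± 0.191 in control, and Foxp3 to the CD3 mean 0.262 ± 0.0432 in ZQD and 0.259 ± 0.0727 in control (SD, n = 3 and 4). Tcf7 to the CD3 mean was 1.80 ± 0.799 in ZQD, with 2.69 in ZQD 2, and 1.32 ± 0.165 in control. Zap70 to the CD3 mean was 0.398 ± 0.0365 in ZQD and 0.385 ± 0.078 in control, and Lck to the CD3 mean 1.20 ± 0.226 in ZQD and 1.07 ± 0.0606 in control. Cd8a to Cd4 was 4.38 ± 0.949 in ZQD and 4.51 ± 1.09 in control, and Foxp3 to Cd4 was 0.390 ± 0.131 in ZQD and 0.420 ± 0.0683 in control.

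**Figure D4:**
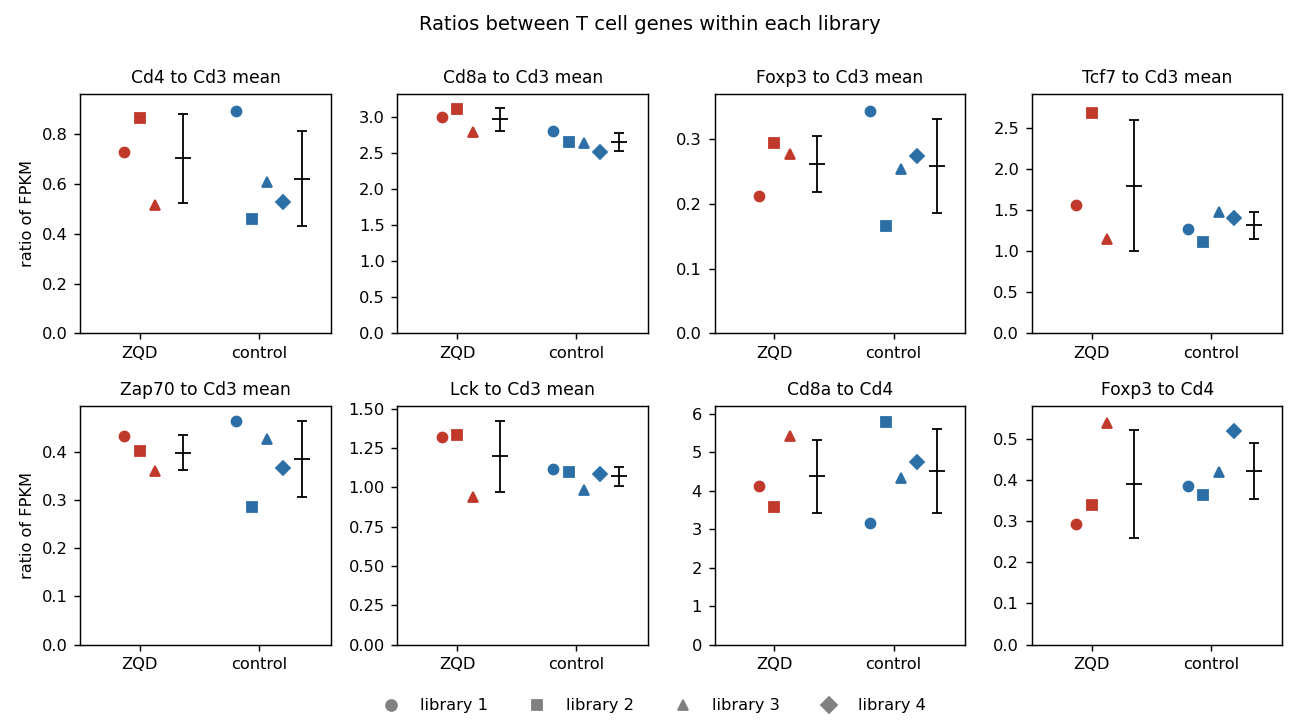
Ratio of FPKM within each library for 8 pairs of T cell measures (3 ZQD libraries left, 4 controls right, symbols give the library number), with mean and SD beside each group; the CD3 mean is that of Cd3d, Cd3e and Cd3g. The groups overlap in every panel and lie closest to apart for Cd8a to the CD3 mean (2.80 to 3.11 in ZQD, 2.51 to 2.81 in control).

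The variable segments of the beta chain, which differ between T cell clones, were read in addition after the Trbc2 values had been seen. Reads could be rebuilt for 19 of 22 Trbv segments in the files, and of the other 3 at most 2 were detected in a library. The 19 had 334, 90 and 122 reads in ZQD 1 to 3, against 242, 128, 129 and 55 reads in controls 1 to 4. In ZQD 1, Trbv15 held 296 of the 334 reads (88.6%, exact Clopper-Pearson 95% interval 84.7% to 91.8%), and this is also the library where Trbc2 was highest. Trbv15 held 8.89% of the reads in ZQD 2 and 1.64% in ZQD 3, against 37.6%, 18.8%, 35.7% and 5.45% in controls 1 to 4. The leading segment was another in the other ZQD libraries, Trbv26 with 37.8% in ZQD 2 and Trbv13-1 with 28.7% in ZQD 3, while Trbv15 led in controls 1 to 3 and Trbv20, with 29.1%, in control 4. In control 2 the lead of Trbv15 was nearly a tie, with 24 reads against 23 of Trbv12-1. Segments of a family share sequence, so reads may be split between them, and the interval covers counting error only, because PCR copies of a molecule are counted as separate reads. Leaving out Trbv15, the other segments held 38, 82 and 120 reads in ZQD 1 to 3, against 151, 104, 83 and 52 reads in controls 1 to 4. Of 58 alpha chain segments 30 had a length, which came from controls 1 and 2, and segments without a length were detected in every library but these 2, so the reads of the others are incomplete. The alpha chain segments with a length gave 49, 84 and 53 reads in ZQD libraries, against 76, 96, 29 and 39 reads in controls.

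**Figure D5:**
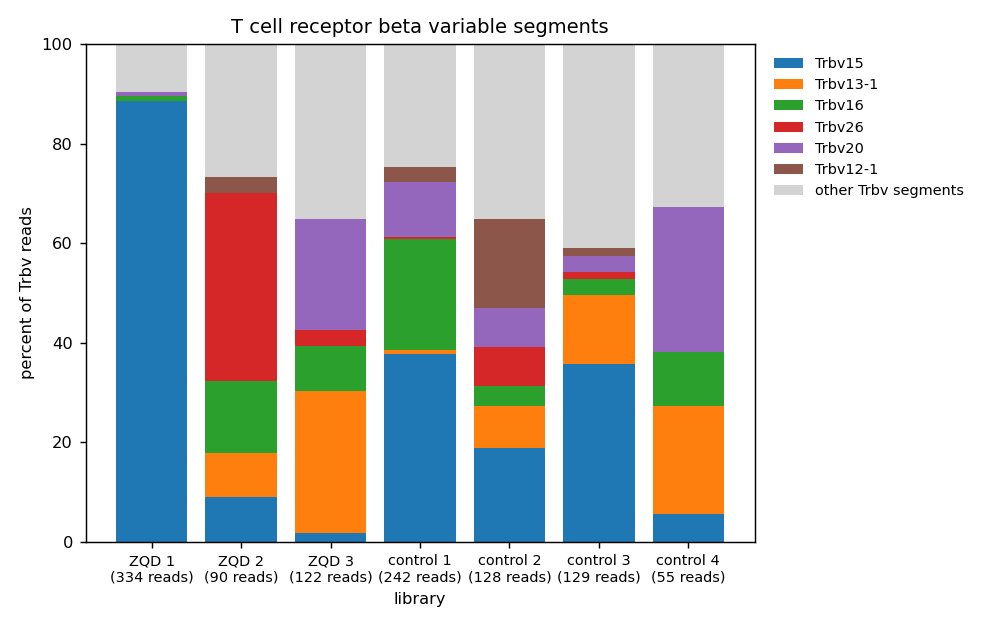
Share of the reads of 19 T cell receptor beta variable segments taken by 6 of them and by the rest, per library (ZQD left, controls right; reads per library below each bar). Trbv15 takes 88.6% of 334 reads in ZQD 1 and 1.64% to 37.6% in the other 6 libraries.

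The rest of the receptor pathway was split between both directions. Of 39 genes of downstream receptor signalling, 33 were tested, 19 were above 0 and 14 below, and the median log2 fold change was 0.069, or -0.032 on the TPM scale and 0.018 without control 4. None passed in limma, edgeR or DESeq2. At an unadjusted p under 0.05 in limma, 4 of the 33 were higher (background 5.21% of all genes) and 2 lower (background 10.3%). Ptpn22, a phosphatase that restrains Lck and Zap70, was at 11.3 ± 2.03 FPKM in ZQD and 7.81 ± 1.66 FPKM in control, which gives 0.52 on the log2 scale (limma adjusted p = 0.251). Orai1, the calcium channel that opens after receptor signalling, was at 6.23 ± 1.09 FPKM in ZQD and 4.72 ± 0.353 FPKM in control, which gives 0.36 on the log2 scale (limma adjusted p = 0.257). The most abundant were Ptpn6, the phosphatase SHP-1, at 40.2 ± 4.87 FPKM in ZQD and 38.3 ± 4.74 FPKM in control, and Csk, the kinase that holds Lck inactive, at 28.4 ± 2.94 FPKM in ZQD and 32.8 ± 1.75 FPKM in control. These genes are also expressed by other leukocytes, so their level in whole tumours is not that of T cells alone.

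A further list of 31 T cell surface and transcription factor genes also held the member Lck. Of the 31, 25 were tested, 15 were above 0, and the median was 0.23, the value of Lck itself, or 0.12 without control 4. In DESeq2, Cxcr6 and Klf2 were among those called higher in ZQD, and limma and edgeR called none of the list. Cxcr6, a chemokine receptor of tissue-resident T cells and NK T cells, was at 3.41, 2.87 and 2.74 FPKM in ZQD libraries, against 1.77, 1.71, 1.78 and 1.25 FPKM in controls. The groups did not overlap, and the log2 fold change was 0.73 (limma adjusted p = 0.154, DESeq2 adjusted p = 0.00167). Klf2, a factor of recirculating lymphocytes that myeloid cells also express, was at 16.9 ± 0.891 FPKM in ZQD and 11.8 ± 1.72 FPKM in control (log2 fold change 0.51, limma adjusted p = 0.154, DESeq2 adjusted p = 0.00735), and is named because DESeq2 called it. Both genes kept their DESeq2 call without control 4, with adjusted p of 0.011 for Cxcr6 and 0.00286 for Klf2. Of 10 further regulatory T cell genes, 8 were tested, 4 above 0 and 4 below, with a median of -0.043, or 0.046 without control 4. Il1rl1, the interleukin-33 receptor of regulatory T cells, type 2 innate lymphoid cells and mast cells, was lower in ZQD, at 29.1, 22.7 and 30.2 FPKM, against 84.9, 45.8, 49.7 and 49.2 FPKM in controls. It was the only gene of that list that DESeq2 called (log2 fold change -1.02 in limma with adjusted p = 0.154, DESeq2 adjusted p = 0.00025, and 0.000379 without control 4).

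Markers of other cells that could share these transcripts were read beside them. Of the genes of gamma delta and invariant T cells, Trdc had 0 to 9 reads per library, Sox13 lay at 0.214 to 0.618 FPKM in ZQD and 0.167 to 0.424 FPKM in control, and Zbtb16 lay at 0.0980 to 0.472 FPKM in ZQD and 0.0243 to 0.0796 FPKM in control. None (0) of the 4 found in the files reached the filter. Of 9 NK cell markers 6 were tested, 5 above 0, with a median of 0.47 and summed FPKM of 50.2 to 57.4 in ZQD and 34.4 to 50.8 in control. Eomes, also in the list of T cell surface and transcription factor genes, made up the largest part of that sum. It was at 31.7 ± 1.63 FPKM in ZQD and 23.2 ± 5.82 FPKM in control. The tested marker below 0 was Prf1, at 8.86 ± 3.67 FPKM in ZQD and 11.9 ± 3.79 FPKM in control (log2 fold change -0.44). Ncr1, which defines NK cells, lay at 0.386 to 0.916 FPKM in ZQD and 0.203 to 0.544 FPKM in control. DESeq2 called Klrk1 and Klrd1, receptors that NK cells share with CD8 T cells (adjusted p of 0.00542 and 0.0313, and of 0.0251 and 0.0844 without control 4, which ends the call of Klrd1). B cell markers were low, Ms4a1 with 4 to 14 reads per library, and 3 of 4 tested lay above 0, with a median of 0.095, or -0.0020 without control 2. Macrophage and monocyte markers lay above 0 in 12 of 13, with a median of 0.38, and their summed FPKM was 1241 to 1578 in ZQD and 870.1 to 1229 in control, lowest in control 4 as for the T cell genes. DESeq2 called Cd14 and Lyz2 of them higher in ZQD (adjusted p of 0.0434 and 0.0294, and of 0.155 and 0.00808 without control 4, which ends the call of Cd14), and limma and edgeR called none. The part of these cells in the T cell values was not tested.

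The remaining lists gave medians of 0.49 for plasma cell (5 of 8 tested), -0.061 for type 2 innate lymphoid (4 of 8), -0.058 for dendritic cell (7 of 10), 0.31 for fibroblast (8 of 9), 0.19 for tumour and proliferation (6 of 8), 0.019 for blood (7 of 8), 0.43 for skeletal muscle (3 of 7) and 0.13 for pan-leukocyte genes (8 of 8). Several of these medians moved with a single library. The plasma cell median was -0.025 without ZQD 1, and the fibroblast median -0.013 without ZQD 2 and -0.072 without control 4. The blood median was -0.89 without ZQD 2 and 0.54 without ZQD 3, and the skeletal muscle median ran from 0.098 without control 2 to 1.11 without control 1. The type 2 innate lymphoid median was 0.025 without ZQD 1 and the dendritic cell median 0.025 without ZQD 2. The 13 mitochondrially encoded genes took 11.0%, 10.6% and 8.72% of the reads in ZQD libraries, against 6.42%, 7.19%, 7.91% and 5.12% in controls, without overlap between groups. A larger share for these genes lowers the FPKM of all others. With libraries scaled without them, a choice made after seeing the data, the median log2 fold change of the 27 T cell genes was 0.26. That of all genes tested rose too, to 0.0036. On the TPM scale the median of the T cell genes was 0.14, with 21 of 27 above 0, and that of all genes was -0.13.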

How the data were processed

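Messenger RNA sequencing of 3 ZQD and 4 control tumour libraries was analysed, with groups taken from the sample titles. FPKM were deposited by the authors for each of the 7 libraries, with raw counts for controls 1 and 2 only. HISAT2, featureCounts, Subread and DESeq2 are named by the submitters' processing notes, and no source used here gives their versions, a genome build or the strandedness. Dividing a count by its total and by the deposited FPKM gave gene lengths for 27421 of 32212 genes. With them, reads were rebuilt, and 100% of the values were whole within 0.05 reads. Libraries held 34765330 to 38673663 reads in ZQD and 32065288 to 49914394 in control, and 1 read in a gene of 1 kb was worth 0.026 to 0.029 FPKM in ZQD and 0.020 to 0.031 in control. Symbols matched 31571 (98.0%) of the identifiers. Overlaps between exons were taken from GENCODE M21, whose exon lengths equal the rebuilt ones for 98.2% of 27021 genes, and no coordinates of the authors' files were used. For Tcf7 the rebuilt length was 3019 bases, against 2625 in GENCODE M21.

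The test was limma 3.58.1 with trend in R 4.3.3 on log2(FPKM + 0.5), two-sided, for the 14838 genes at 0.5 FPKM or more in 3 or more libraries, with Benjamini-Hochberg adjustment over all of them at 0.05. As alternatives, the rebuilt reads of 14832 genes were tested with edgeR 4.0.16 and DESeq2 1.42.0, the last giving 1733 genes no adjusted p. Pseudocount, filter, scaling, trend, library weights, replicate number as a block and each library left out in turn were also varied. On simulated reads of ZQD against control (14832 genes), the share of genes with a log2 change of 1 that was found was 75% in limma, 82% in edgeR and 89% in DESeq2. For a log2 change of 2 the shares were 95%, 97% and 98%. Of 14632 unchanged genes, limma called 9, edgeR 13 and DESeq2 50, so false calls were most frequent in DESeq2. Changes were placed only in genes with more than 50 expected reads. No log2 change smaller than 1 was simulated, so these shares do not cover changes of the size seen in the T cell genes. Ratios were tested by exact permutation in Python 3.11.15, and the Clopper-Pearson intervals came from scipy 1.17.1.

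The members and lists were chosen with earlier results of these data known. Values in every library are given for members whose groups do not overlap, the 10 of smallest p, and Cd3e, Cd4, Cd8a and Foxp3. From other lists, genes were named among the 2 of smallest p and the 2 most abundant. Defining markers, Pou2f1 and genes that DESeq2 called were added after their values were seen. Trgc1, Trgc2, Trgc4, Il17a and Tnfrsf17 were not analysed here. Single values of a few further genes are not reported here.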

Additional observations from a re-analysis of the deposited data

How the results depend on the processing

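With limma, 0 of the T cell genes passed under any scaling, filter, pseudocount or left-out library, and the median log2 fold change stayed above 0 in all of these, from 0.087 without control 4 to 0.29 without ZQD 2. DESeq2 gave 504 genes and 2 T cell genes in place of 0 and 0, and, in a fit added after seeing the data, 295 genes and 0 T cell genes without control 4. The replicate number as a block gave 1 gene and 0 T cell genes, with a median of 0.087, the same as without control 4, which has no partner in that fit. Correlations of the deviations of libraries of the same number were 0.25, 0.0998 and -0.15, against -0.30 to 0.26 for libraries of different number. So few values cannot tell whether the numbers pair the samples. Of 562 values of single tested T cell genes under alternatives, 539 kept their direction and side of the threshold, 2 gained the call (Cd247 and Icos in DESeq2) and 21 turned direction, in 5 genes. Genes below the filter are outside this count, and of them Foxp3 turned from 0.091 to -0.036 without ZQD 3. Bcl11b turned from 0.034 to -0.090 without control 4 and to -0.0084 on the TPM scale. Gata3 was 0.014 with median-of-ratios scaling, 0.025 with TMM, 0.035 with scaling without mitochondrially encoded genes, 0.037 in edgeR and 0.037 in DESeq2, and -0.17 to 0.10 with 1 library left out. Cd3e was -0.019 on the TPM scale, -0.18 with the block and -0.18 to 0.19 with 1 library left out. Cd3g was -0.0064 and Lat -0.11 with the block, and they were -0.069 to 0.30 and -0.11 to 0.35 with 1 library left out, where Il2ra was -0.066 to 0.30. In DESeq2 without control 4, Cd3e was -0.15 and Lat -0.12. With 1 library left out, the log2 difference of ratios was -0.15 to 0.20 for Foxp3 to the CD3 mean, -0.068 to 0.17 for Zap70 to the CD3 mean, -0.20 to 0.10 for Cd8a to Cd4 and -0.40 to 0.038 for Foxp3 to Cd4. Of all genes at an unadjusted p under 0.05, 773 were higher and 1533 lower, against 1008 and 1158 with median-of-ratios scaling, 1094 and 1093 with TMM, 1152 and 1046 without mitochondrially encoded genes, and 379 and 2856 on the TPM scale, where the median of all genes was -0.13. The cause of these differences was not tested. Depth limits Lef1, with 12 reads in its shallowest library.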
